A study of Saccharomyces cerevisiae with 12 samples.

Results

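Genomic DNA of ageing sac3 mutant cells was followed from log phase to 24 h and 48 h in 3 libraries, 1 at each time, of the 12 libraries of 4 genotypes in the series. The libraries were taken by their labels, and the measure was the normalised read signal in 2441 windows of 25 kb, placed every 5 kb along the 16 nuclear chromosomes and the mitochondrial DNA. In each window the signals at 24 h and at 48 h were divided by that at log phase, so both ratios share the log phase library. With 1 library at each time there was no replicate, no ratio could be tested, and counting intervals cover the sampling of reads only.

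The sac3 cells were MATa/MATα diploids of 1 strain, grown in YPD and homozygous for sac3::TRP1, with the mother enrichment program (MEP). They were also homozygous for loxP-CDC20-Intron-loxP-HPHMX, for loxP-UBC9-loxP-LEU2, for ade2::hisG and for hoD::SCW11pr-Cre-EBD78-NatMX, together with his3, leu2, ura3D0 and trp1D63, and lys2 and met15D::ADE2 were heterozygous. In this system a Cre recombinase fused to an estradiol-binding domain, driven by the daughter-specific SCW11 promoter and placed at both HO loci, removes the essential genes UBC9 and CDC20 in newborn daughters once β-estradiol is added, so that mother cells age in culture while daughters stop dividing. The other groups were spt3 mutant, rad52 mutant and wild type MEP diploids, the last with SAC3 intact. Log phase cells were taken from the growing culture. The aged samples were biotin-labelled mother cells recovered after 24 h or 48 h of culture.

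Sac3 is the scaffold of TREX-2, a complex at nuclear pores that helps to export mRNA and to tether DNA there. Circles of ribosomal DNA that pop out of the repeat array on chromosome XII (ERCs) normally stay in the mother cell and build up with age. Mutants of TREX-2 or of the coactivator SAGA retain such circles poorly.

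The deletion could be located to the base. The 2 oligonucleotides used to delete the gene each hold 45 bases of yeast sequence, which are shown because they set the ends of the missing segment. They are in lower case throughout. They matched R64 at IV 771832 to 771876 on the plus strand and at IV 775783 to 775827 on the minus strand:
upstream arm: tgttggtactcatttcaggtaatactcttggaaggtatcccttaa
downstream arm: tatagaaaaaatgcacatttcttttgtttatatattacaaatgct
The 3906 bases between them are the whole coding sequence of SAC3 (YDR159W, IV 771877 to 775782). Because the last windows are shortened at each right end, the signal of single 5 kb bins could be recovered by subtraction, and the SAC3 locus checked both the label and the subtraction. The bin IV 770001 to 775000 lost 3124 bases, which leaves 0.375 of it. Its signal was 936, 1032 and 915 in the log phase, 24 h and 48 h sac3 libraries, against 2405 to 2685 in the 9 libraries of the other genotypes. The ratio to their mean at the same time was 0.375, 0.413 and 0.350. The next bin, which keeps 0.844 of its length, had ratios of 0.858, 0.849 and 0.874, and the bin before the deletion 1.01, 1.05 and 1.03.

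The later libraries were shallower. Taking the smallest repeated step between values as 1 read, windows that do not overlap held 11775856 reads in the log phase library, 9182731 in the 24 h library and 5261601 in the 48 h library, and a median full-length nuclear window held 21605, 16069 and 8934 reads. That gives a counting error of 0.680%, 0.789% and 1.06% for a window. The median 5 kb bin at 48 h held 1750 reads, with a counting error of 2.39%, and neighbouring bins scattered about each other by 5.75% in the 48 h ratio and 5.01% in the 24 h ratio.

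The nuclear genome of the 24 h library lay close to that of the log phase library, whereas the 48 h library had 2 kinds of departure from it, low chromosome ends and discrete high regions. Over the 2330 full-length nuclear windows outside the rDNA the ratio ran between 0.826 and 1.22 at 24 h, with a median of 1.02 and 86.4% of windows within 1.1-fold of log phase. At 48 h it ran between 0.402 and 1.85, with a median of 1.01 and 58.9% within 1.1-fold. Of 2423 nuclear windows, 6 (0.248%) were at least 1.3-fold above log phase at 24 h and 0 (0%) were as far below it. All 6 were overlapping windows that touch the rDNA. At 48 h 219 windows (9.04%) were higher and 191 (7.88%) lower by that measure. The nearer edge of each of the 191 lay no more than 30 kb from a chromosome end, and they fell on all 16 chromosomes. Of them 76 were shortened windows at right ends. Of the 219 higher windows, 210 belonged to 28 runs of at least 3 overlapping windows on 12 chromosomes.

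**Figure D1:**
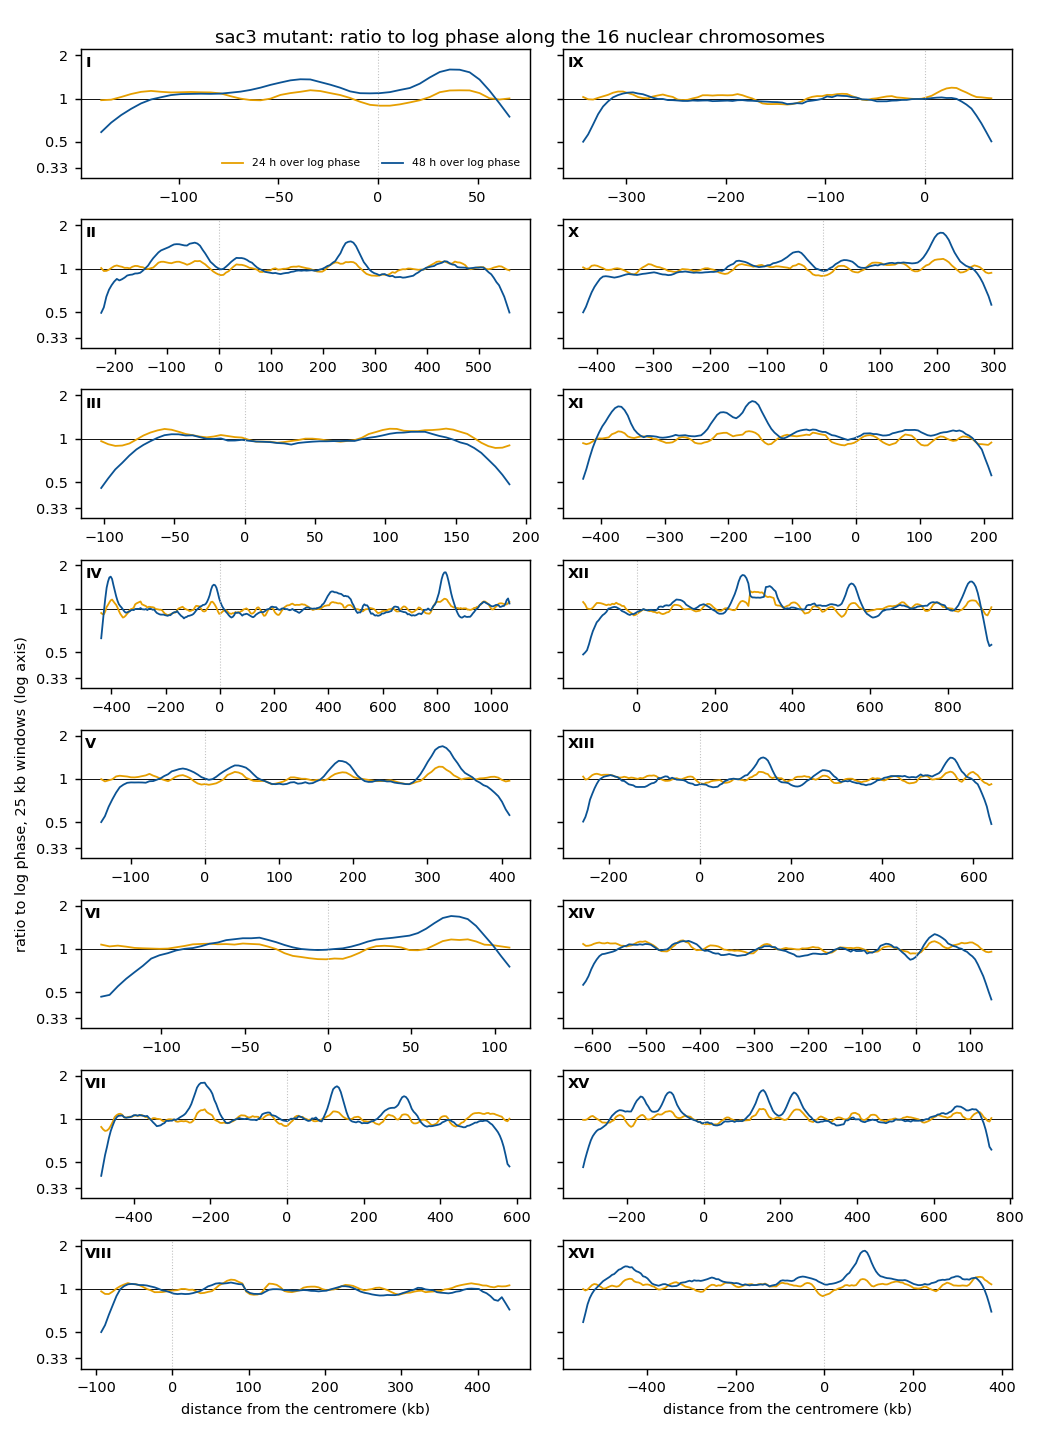
Ratio to log phase in full-length 25 kb windows (vertical log axis) against distance from the centromere in kb for the 16 nuclear chromosomes, at 24 h (orange) and 48 h (blue). The 48 h line falls at nearly every chromosome end and has separate peaks of up to 1.85, while the 24 h line stays between 0.826 and 1.22 outside the rDNA.

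Base composition moved with the ratio, most at 24 h. Across 423 interior windows that do not overlap, the correlation of GC content with the log2 ratio was 0.61 (Pearson's r; Spearman's rho 0.58) at 24 h and 0.24 (rho 0.25) at 48 h. All windows share the same libraries, so these values describe the profiles. Centromeres, which lie in AT-rich DNA, were low at 24 h. The 5 kb bin holding the centromere (for chromosome XII, the windows holding it) had a median ratio of 0.895 at 24 h, below 1 on 15 of 16 chromosomes, with IX (1.02) as the exception. At 48 h the median was 0.992, with a range of 0.879 to 1.14. With the window ratios corrected for GC content the median at centromeres was 0.977 at 24 h, against 0.927 for the same windows without it.

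Low chromosome ends were found on all 16 chromosomes of the 48 h library. Yeast chromosomes end in short telomeric repeats, next to them lie X and, at some ends, Y' elements, and the neighbouring gene-poor stretches hold gene families such as COS, PAU and FLO. Over the 176 full-length windows within 50 kb of an end the median ratio was 1.01 at 24 h (quartiles 0.959 and 1.04) and 0.710 at 48 h (0.566 and 0.841). The 2154 windows farther inside had medians of 1.02 and 1.03. Of the end windows 113 were at least 1.3-fold lower at 48 h, and of the interior windows 2 were.

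The low signal was shared by almost every end. Over the 32 terminal windows, the median ratio was 1.00 at 24 h, with a range of 0.880 to 1.14, and 0.503 at 48 h. At 48 h 31 of 32 were at least 1.3-fold lower than at log phase, between 0.402 and 0.690. The left end of VII had signals of 12089, 10640 and 4863 from log phase to 48 h, the lowest ratio of all (0.402). The right end of XIV had 9700, 9616 and 3949 (0.407). The right ends of VI and VIII were the highest of the 31, at 0.690 each. The right end of IV was the exception: its terminal window had 16182, 18472 and 16903, ratios of 1.14 and 1.04, although its outermost full bin was at 0.748 at 48 h.

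The low signal eased gradually along the chromosome. In the outermost 5 kb the median over 31 ends was 0.451 at 48 h and all 31 were below 1, between 0.276 and 0.748. The left end of XII was left out, since bins could not be recovered on that arm. The median was 0.437 at 5 to 10 kb from the end, 0.507 at 10 to 15 kb, 0.673 at 20 to 25 kb, 0.846 at 30 to 35 kb and 0.977 at 40 to 45 kb. Beyond 50 kb it lay between 1.03 and 1.09. Going inwards, a bin reached 0.9 of log phase at a median of 38.2 kb from the end. At 24 h the same medians were 1.09 in the outermost bin, 0.947 at 10 to 15 kb and 1.09 at 40 to 45 kb.

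**Figure D2:**
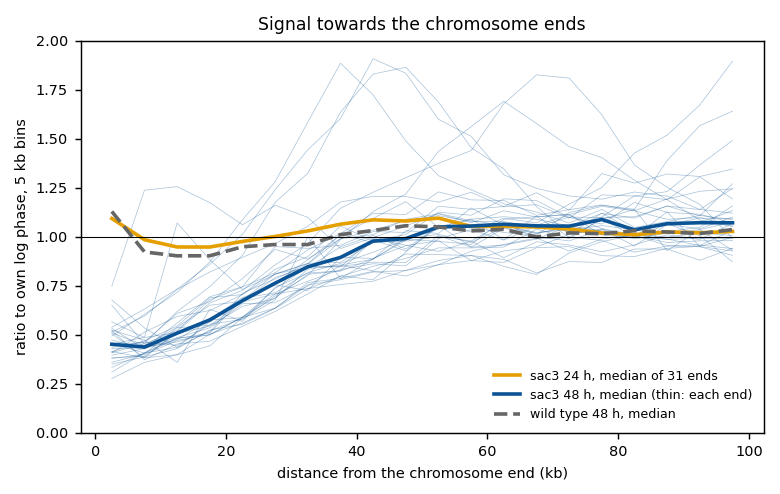
Ratio to the same genotype's log phase in 5 kb bins (vertical axis) against distance from the chromosome end in kb, with the sac3 median over 31 ends at 24 h (orange) and 48 h (blue), each end at 48 h (thin lines) and the wild type median at 48 h (dashed). The sac3 48 h median climbs from 0.451 in the outermost bin to 1.05 at 50 to 55 kb, while the wild type median is 1.13 and 1.05 at these places.

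Ends with and without Y' elements, repeats whose reads fit many places, were both low. The 16 ends with an annotated Y' element and a recovered bin had a median outermost bin of 0.511 at 48 h and 1.17 at 24 h. The 15 without had 0.395 at 48 h and 1.00 at 24 h. Ends of the aged libraries of other genotypes differed: the terminal windows had a median 48 h ratio of 0.503 for sac3, 0.764 for spt3, 0.895 for rad52 and 1.00 for wild type. Of the 32, 31 were at least 1.3-fold lower for sac3, 18 for spt3 and 0 for both rad52 and wild type. The ends of spt3 were already low at 24 h, with a median of 0.637. Of these, 28 of 32 were at least 1.3-fold lower, beside 6.23% of its nuclear windows. At that time the medians were 1.00 for sac3, 1.01 for rad52 and 1.03 for wild type. In each of these 0 of 32 were lower, beside 0%, 0.0413% and 0% of their nuclear windows. Over all nuclear windows the share called lower at 48 h was 7.88% for sac3, 3.22% for spt3, 0.33% for rad52 and 0% for wild type. These differences between genotypes rest on 1 library each and were not tested.

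Gene families of the ends had low ratios where their members lay near an end. Of 5772 protein-coding genes with recovered bins, 344 (5.96%) had a bin ratio at least 1.3-fold lower and 540 (9.36%) at least 1.3-fold higher at 48 h. Of the 239 genes within 20 kb of an end 229 were lower and 0 higher, with a median of 0.482. Genes in the same bin share its value. COS genes, which encode endosomal sorting proteins, had a median of 0.406 at 48 h and 0.996 at 24 h, and 11 of 12 were lower. COS12 at the left end of VII had bin signals of 2833, 2837 and 781, a ratio of 0.276. COS111, the member that lies 181 kb inside chromosome II, had a ratio of 0.998.

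PAU genes, a family of cell wall proteins of the seripauperin type, had a median of 0.435 at 48 h, and 18 of 24 were lower. PAU19 stood at 0.353 and PAU24 at 0.359, whereas PAU2, 63.7 kb from its end, stood at 0.892 and PAU7, 53.2 kb from its end, at 1.31, the 1 higher member. PAU10, on the exceptional right end of IV, stood at 1.24. The 8 YRF1 genes, helicases encoded by Y' elements, had ratios of 0.455 to 0.696 at 48 h and a median of 1.15 at 24 h. Of the hexose transporter genes 7 of 16 (HXT) were lower, with HXT17, 10 kb from an end, at 0.386, and HXT1, inside chromosome VIII, at 0.975. Of the flocculin genes 1 of 5 was lower (FLO10, 0.688), and FLO1 stood at 1.19.

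On chromosome III the silent mating type cassettes lay within the slopes and the active locus outside them. The bin with HMLALPHA1 and HMLALPHA2, 12.4 kb from the left end, had signals of 2605, 2351 and 1256, ratios of 0.902 and 0.482. The bin with HMRA1 and HMRA2, 22.3 kb from the right end, had 2581, 2235 and 1771, ratios of 0.866 and 0.686. MATALPHA1 stood at 1.01 and 0.942.

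The 28 high runs at 48 h were chosen by the 48 h ratio, so their height is a description. They were 35 to 105 kb long, with a median of 55 kb, and their highest windows had ratios of 1.32 to 1.85, with a median of 1.55. Chromosomes III, VIII, IX and XIV had none. The highest was on XVI, where the window 635001 to 660000 had signals of 17327, 20206 and 31980 in the 3 libraries (1.17 and 1.85). The window XI 265001 to 290000 had 17054, 19107 and 31164 (1.12 and 1.83). The window IV 1270001 to 1295000 had 15556, 18210 and 27886 (1.17 and 1.79). Those at VII 270001 to 295000 and X 630001 to 655000 reached 1.79 and 1.78. These 5 places also held the 5 runs at or above the 99th percentile of windows at 48 h (1.69). Just inside the 1.3-fold limit was a run on IV whose highest window reached 1.32, and the 4 higher full-length windows that formed no run lay outside the 28.

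The ratio fell off to both sides of each summit. In 27 of them bins could be recovered, and the highest bin stood between 1.38 and 2.09, with a median of 1.69. Away from it the median was 1.57 and 1.56 at 5 kb on either side, 1.45 and 1.45 at 10 kb, 1.24 and 1.16 at 20 kb, and 1.10 and 1.06 at 30 kb. The highest bins held genes of many kinds, such as MIF2, a centromere protein, with MDH1, mitochondrial malate dehydrogenase (XI, 2.09), MET13, a methylenetetrahydrofolate reductase (VII, 2.02), GLN1, glutamine synthetase, with VMA13, a subunit of the vacuolar proton pump (XVI, 1.99), RPB7, a subunit of RNA polymerase II (IV, 1.95), and UBP3, a ubiquitin protease (V, 1.92).

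**Figure D3:**
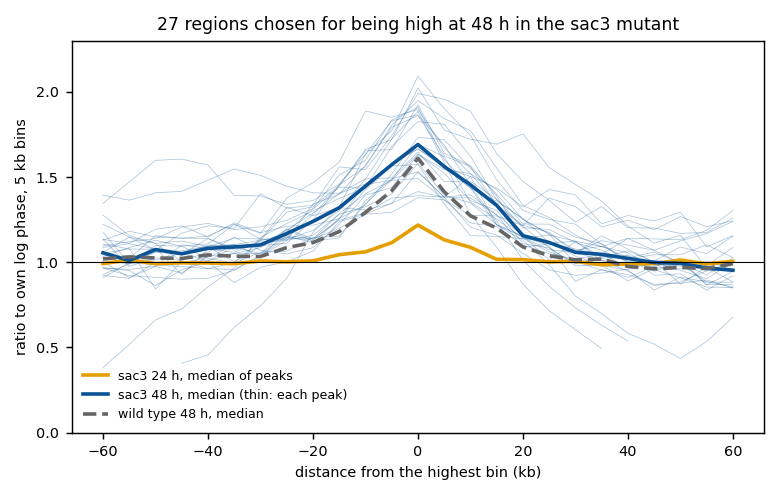
Ratio to the same genotype's log phase in 5 kb bins (vertical axis) against distance in kb from the highest bin of 27 regions that were chosen for their high sac3 ratio at 48 h, with sac3 medians at 24 h (orange) and 48 h (blue), each region at 48 h (thin lines) and the wild type median at 48 h (dashed). The sac3 medians at the centre are 1.22 (24 h) and 1.69 (48 h), and that of wild type is 1.61.

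Measures other than the 48 h ratio were also high at these places. In the log phase library the 28 windows already stood between 1.13 and 1.39 times the nuclear median signal, with a median of 1.29, and this median was 1.44 and 2.01 in the later libraries. All 28 were above the nuclear median in the log phase libraries of the other genotypes too, with medians of 1.3 for spt3, 1.32 for rad52 and 1.38 for wild type. At 24 h all 28 ratios to log phase were above 1, between 1.06 and 1.21, with a median of 1.13 against 1.02 over all full-length windows. They share their denominator with the 48 h ratios. With the mean of the 4 log phase libraries below the line, all 28 remained above 1 at 24 h, with a median of 1.1. That mean still includes the sac3 log phase library, so it does not separate the 24 h ratios from the choice of windows. With GC content corrected the median was 1.11.

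The other genotypes, each divided by its own log phase library, had peaks at the same windows to different degrees. The median 48 h ratio over the 28 windows was 1.55 for sac3, 1.48 for spt3, 1.1 for rad52 and 1.41 for wild type, and the sac3 ratio was above that of wild type in 26. The 28 windows were chosen by their sac3 ratio at 48 h, which favours sac3 in this comparison. For spt3, 28 of 28 were at least 1.3-fold higher, beside 8.87% of all nuclear windows. For rad52 2 were, beside 5.08% of all windows, and for wild type 23, beside 7.35%. The 2 rad52 windows, at 1.63 and 1.61, both lay to the right of the rDNA on XII. Over that whole segment the median 48 h ratio was 1.43 for rad52 and 1.23 for wild type. In the other peak windows the rad52 ratio was at most 1.21. Wild type was above sac3 only in the same 2 windows, at 1.69 and 1.65. Whether these 2 stand above the level of their segment was not tested. In spt3 the peaks were present by 24 h: the median level of the 28 windows, relative to the nuclear median signal, was 2.04 at 24 h and 1.98 at 48 h. By the same measure the levels at 24 h and 48 h were 1.78 and 1.93 in wild type and 1.59 and 1.47 in rad52. Those of sac3 were 1.44 and 2.01, so sac3 had the lowest level of the 4 genotypes at 24 h of culture, without matching for replicative age. The differences between genotypes were not tested. Across the 423 interior windows the log2 48 h ratio of the sac3 mutant correlated with that of the spt3 mutant at 0.88 (rho 0.81), of wild type at 0.79 (rho 0.70) and of the rad52 mutant at 0.24 (rho 0.28). These points share genome position and base composition, and the sac3 values share 1 pair of libraries.

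Annotated elements near the peaks were counted. The nearest of 352 annotated replication origins lay a median of 11.8 kb from the middle of a peak's highest bin, against 10.6 kb over all 2309 bins, and 5 of 27 highest bins lay within 5 kb of an origin, against 26.3% of all bins. The highest bin of all, on XI, lay 52.3 kb from the nearest, ARS1109, and that at IV 1275001 to 1280000 lay 1.16 kb from ARS434. Interior bins with an origin had a median ratio of 1.02 at 48 h and those without 1.03. Bins with a Ty element had 1.08, against 1.02 without, and bins with a tRNA gene 1.03 and 1.03. The highest bins were richer in GC than bins at large (median 41.1% against 38.1%) and their coding share was 74.0%, against 76.1%. With GC content corrected, the median 48 h ratio of the 28 highest windows was 1.52, against 1.55 without, and all 28 remained above 1. The part of base composition in the peaks was not tested beyond this.

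Engineered and marker loci lay both in and out of the peaks. HO, where the Cre construct sits, and SSB1, for a ribosome-associated chaperone, share the highest bin of a peak on IV. Its signals were 1437, 1617 and 2679 from log phase to 48 h (1.13 and 1.86), of which the first lay below the nuclear median bin of 2532. The bins of CDC20, a loxP-flanked gene on VII, had ratios of 1.14 and 1.72, while UBC9, the other, had 0.95 and 0.884. SCW11 had 1.03 and 1.23. ADE2, on XV, stood at 1.20 and 1.59, the 1 of 7 marker genes above 1.3-fold, beside 9.36% of all protein-coding genes. TRP1, the marker that replaced SAC3, stood at 0.959 and 1.02. Its bin over that of wild type was 1.19 in log phase, with 1.00 and 1.20 at the later times.

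The genes of the pathway were looked at by the signal of the bins that hold them. The other TREX-2 subunits had 48 h ratios of 1.11 (THP1), 1.03 (SUS1, shared with SAGA), 0.954 (CDC31, the centrin) and 0.880 (SEM1, also of the proteasome), and 0 of 5 TREX-2 genes, SAC3 with its partly deleted bins included, passed 1.3-fold in either direction. Of the SAGA and recombination genes 0 of 5 did, from 0.828 for SPT20, 45.8 kb from an end, to 1.25 for SPT3. Over all protein-coding genes 9.36% were higher and 5.96% lower at 48 h, so such short lists would hold few calls in any case. Among genes that act at the rDNA, FOB1, whose protein blocks replication forks there and promotes recombination of the repeats, had 1.03, SIR2, the deacetylase that silences the rDNA, 1.03, and TOP1, topoisomerase I, 0.905. SIR3, a silencing protein encoded 55.9 kb from the right end of XII, had signals of 6421, 7142 and 9640 (1.11 and 1.5) and was the 1 of 6 in that list above 1.3-fold. It lies within the high run at XII 985001 to 1035000, so its value is that of the peak. Over wild type its bins stood at 0.953 in log phase, then at 0.813 and 0.877. Over all windows to the right of the rDNA on XII, the median ratio of wild type to its own log phase was 1.11 and 1.23. The 8 core histone genes had ratios of 0.992 to 1.27 at 48 h. The CUP1 and ENA arrays stood at 0.876 to 0.931 at 48 h and 0.866 to 0.969 at 24 h.

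Whole chromosomes were compared next. At 24 h all 16 medians were above 1, from 1.00 (VIII) to 1.06 (XVI), but this depended on the scaling: with each library centred on windows outside XII 10 of 16 were below 1, and with the mean of the 4 log phase libraries as denominator 5 were, and with GC correction 1 was. At 48 h 7 were above and 9 below 1, from 0.963 (III) and 0.970 (IX) to 1.09 (XI), 1.1 (I) and 1.14 (XVI). Peaks and ends take up different shares of each chromosome, so medians were also taken over bins at least 60 kb from an end and 25 kb from a run, a choice made after seeing the profiles. Over 1435 such bins the median was 1.01 at 24 h and 0.998 at 48 h. Chromosomes IV, XIII and IX were lowest at 48 h (0.962, 0.970 and 0.978). XVI was at 1.12 (quartiles 1.08 and 1.17) and XI at 1.08 (1.04 and 1.12), above the upper quartile of 1.07 over all such bins. Chromosome I, the shortest, kept only 2 such bins.

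**Figure D4:**
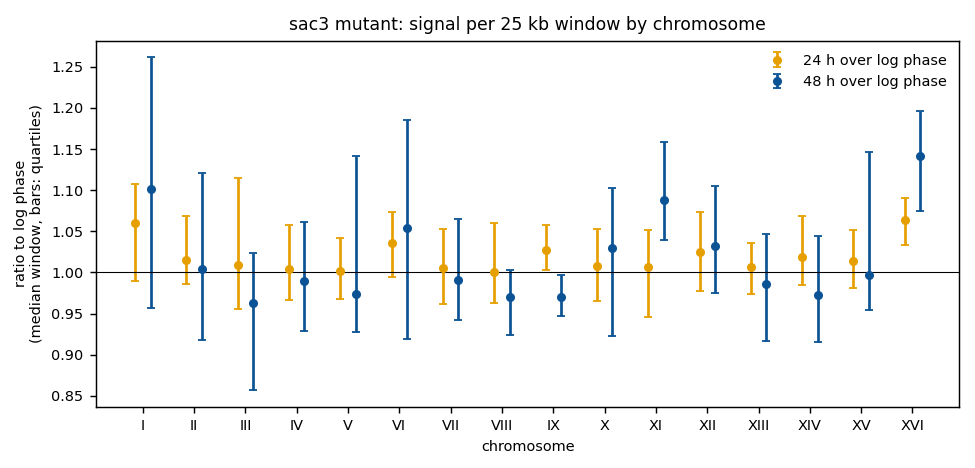
Median ratio to log phase of the 25 kb windows of each nuclear chromosome (points; bars are quartiles over windows, which overlap) at 24 h (orange) and 48 h (blue). Chromosome XVI is highest at both times, at 1.06 and 1.14, and III is lowest at 48 h, at 0.963.

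Chromosome XVI stood apart along its length. Of its 190 windows 165 (86.8%) were above log phase at 24 h and 175 (92.1%) at 48 h, against 58.4% and 49.4% of the 2233 other nuclear windows. Counting error over its summed reads was at most 0.369% (95% interval, to either side). Relative to the mean of the other 3 genotypes at the same time, the median window of XVI was already at 1.07 in log phase, and at 1.16 and 1.22 later. XI gave 0.988, 0.992 and 1.1 by the same measure, and III 0.969, 1.03 and 0.960. From 24 h to 48 h the median window of XVI changed by a factor of 1.08, of XI by 1.09 and of I by 1.12.

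To the right of the rDNA on chromosome XII (ChrXIIr, the 118 windows beyond 490000) the median ratio was 1.03 at 24 h and 1.05 at 48 h, and the arm was uneven at 48 h. The bins between 490001 and 550000 had a median of 1.09, those from 650001 to 750000 1.11 with a peak of 1.69, those from 750001 to 850000 0.996, those from 950001 to 1030000 1.20 with a peak of 1.69, and those beyond 0.677. Between the peaks and away from the end the median was 1.02 at 24 h and 1.03 at 48 h, within the quartiles of such bins over all chromosomes (0.939 and 1.07 at 48 h). Over the mean of the other genotypes its windows stood at 0.989 in log phase, then at 0.847 and 0.826. Those genotypes differed in their own median ratios to log phase at 24 h and 48 h. The ratios were 1.06 and 1.09 for spt3, 1.41 and 1.43 for rad52, and 1.11 and 1.23 for wild type.

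In the rDNA, the array of repeats encoding the large ribosomal RNA precursor and 5S RNA, the signal was above log phase at both ages, and the order of the ages differed between windows that touch a unit of the large ribosomal RNA precursor and those that do not. The window XII 445001 to 470000 had signals of 567944, 742955 and 678589, ratios of 1.31 and 1.19. The 8 windows that touch an annotated RDN37 unit, a split made after seeing the values, had a median of 1.31 at 24 h and 1.20 at 48 h, and all 8 were lower at 48 h than at 24 h. This order held for the 8 with centring on windows outside XII and with GC correction (1.14 and 1.08). The mean of the 4 log phase libraries as denominator gave 0.953 and 0.877. That setting could not change the order, since both ages of a window share the denominator. The whole set of 13 windows touching 450000 to 490000, which takes in 5 that touch no such unit, had medians of 1.3 and 1.21, but 1.14 and 1.14 with GC correction, and 1.26 and 1.3 over the 2 windows left without Ty elements and LTRs. The 5 other windows had medians of 1.21 at 24 h and 1.42 at 48 h, and all 5 were higher at 48 h. Among them, the window XII 425001 to 450000, left of the first annotated repeat, had 15516, 16243 and 23288 (1.05 and 1.5). It overlaps the high run at 395001 to 445000, whose highest window, 410001 to 435000, reached 1.72 at 48 h, and it enters the rDNA set only by its last base. In the window 475001 to 500000, with the asparaginase genes ASP3-3 and ASP3-4 and copies of the 5S gene, the signals were 28245, 34059 and 40190 (1.21 and 1.42). To the right, bins fell away from 1.59 at 495001 to 500000 to 1.40, 1.22, 1.19 and 1.12 in the bins up to 520000. The rDNA of the sac3 mutant stood at 0.691 of the mean of the other genotypes at log phase, then at 0.284 and 0.158. Their own median ratios at 24 h and 48 h were 1.28 and 1.32 for spt3, 1.48 and 1.41 for rad52, and 6.66 and 13.3 for wild type. With the mean of the 4 log phase libraries below the line, the sac3 medians of the 13 windows were below 1 (0.957 at 24 h and 0.909 at 48 h).

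The windows of the mitochondrial DNA had the highest ratios of all. It encodes subunits of the respiratory chain and ATP synthase, a ribosomal protein and the ribosomal and transfer RNAs of the organelle. Its 8 ORI elements are origin-like sequences, of which some can drive preferential replication of deleted genomes. Its median 5 kb bin stood at 0.944 times the nuclear median bin in log phase, then at 3.78 and 4.78 times. It made up 0.666%, 2.22% and 2.99% of the signal. The median ratio over its 18 windows was 3.62 at 24 h (range 2.81 to 3.99) and 4.63 at 48 h (3.24 to 6.70). Its GC content is 17.1%, against 38.3% for nuclear DNA, and the part of base composition in the ratio was not tested. More mitochondrial DNA per cell and fewer nuclear genomes per cell cannot be told apart in such a ratio.

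The increase was uneven along the mitochondrial genome. Bins within COX1, for subunit 1 of cytochrome c oxidase, were lowest: 15001 to 20000 had signals of 1228, 2323 and 2031 (1.89 and 1.65), and 20001 to 25000 had 1225, 2527 and 2570 (2.06 and 2.1). These were also the full bins with the lowest signal in log phase. The bin with ORI7 and ORI2, at 30001 to 35000, was highest at 48 h, with 2338, 9637 and 22685 (4.12 and 9.70). The bin with ORI3 and the end of VAR1, the mitochondrial ribosomal protein gene, had 2947, 13684 and 23686 (4.64 and 8.04), and that with ORI6 and OLI1, for ATP synthase subunit 9, had 3066, 11511 and 19751 (3.75 and 6.44). The bin with ORI4 stood at 5.16 at 48 h, that with ORI5 at 4.68, that with ORI1 at 4.66 and that with ORI8, next to COX1, at 3.55.

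Between 24 h and 48 h the bins with an ORI gained more, by their median, than the others. The 48 h over 24 h factor was 1.21 to 2.35 in the 7 full bins with an ORI, with a median of 1.45, and 0.875 to 1.32 in the 10 full bins without, with a median of 1.18. The sets overlapped, since the bins with ORI1, ORI5 and ORI8 had 1.3, 1.21 and 1.28. At 48 h the bins without an ORI stood between 1.65 and 4.66 times log phase. COB (apocytochrome b, 4.27), the 21S ribosomal RNA gene (4.46), COX2 (4.37) and COX3 (4.55) lay close to the median bin (4.37). In wild type at 48 h the order was another: the bin with ORI7 and ORI2 was at 24.9, below the median bin of 27.2, and the COX1 bin from 15001 was highest at 43.0. In the spt3 mutant the bin with ORI7 and ORI2 was the highest, at 12.9. The difference between genotypes was not tested.

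The reads were 75 bases long, and at most 0.78% of the 75-base stretches of any mitochondrial bin recur in the mitochondrial genome, 0.46% in the bin with ORI7 and ORI2 and 0% in that with ORI3. How reads that fit several places were assigned is not given in the sources used here.

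**Figure D5:**
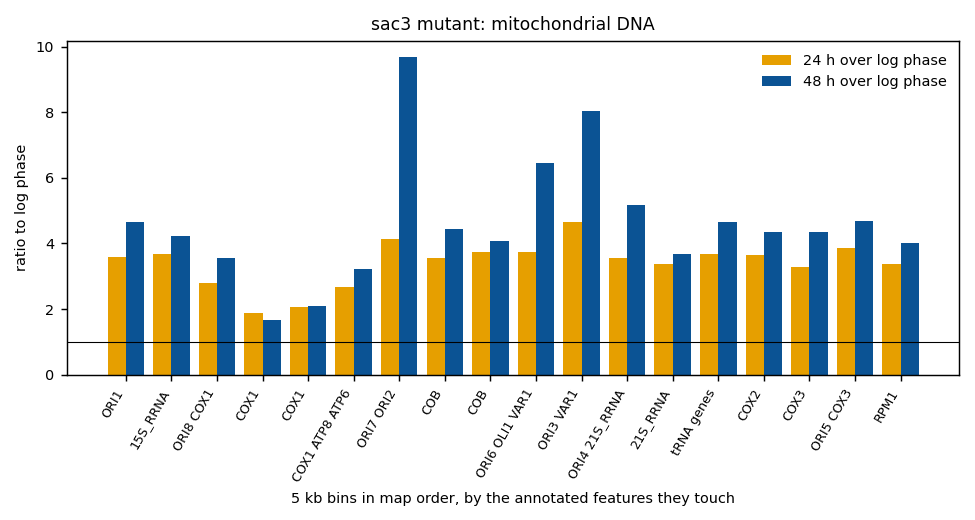
Ratio to log phase (bars from 0) in the 18 consecutive mitochondrial bins, labelled by the ORI elements and genes they touch, at 24 h (orange) and 48 h (blue). The bin with ORI7 and ORI2 reaches 9.70 at 48 h and the lowest COX1 bins stand at 1.65 and 2.1.

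At 24 h, runs of at least 3 windows at or beyond the 99th or 1st percentile were shallow. Higher runs lay on V (450001 to 485000, median 1.21, which was 1.66 at 48 h), XVI (880001 to 925000, 1.21 and 1.16) and IX (365001 to 400000, 1.19 and 1.01). Lower runs lay on III (275001 to 310000, 0.867 and 0.641) and VII (1 to 45000, 0.847 and 0.560), both at ends that were low at 48 h, and around the centromere of VI (120001 to 175000, 0.857 and 0.998). At 48 h the single run at or below the 1st percentile of full-length windows was the left end of XII (1 to 35000, YLL067C to YCT1), at 0.496.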

How the data were processed

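Genomic DNA was sequenced as 75-base single-end reads. Per the labels, reads were trimmed with Trim Galore 0.6.6 and the notes name HISAT2 2.1.0, whereas the methods name Bowtie 2 and R64-1-1; which made the table is not settled. The authors deposited 1 table of normalised read signal, that is, reads per 25 kb window every 5 kb multiplied by a size factor for each library. The methods exclude windows with Ty elements, LTRs, mitochondrial DNA, ENA and CUP1 before size factors were set, but the table holds all windows. Estradiol was added after 2 h per the labels and after 3 h for this mutant per the methods.

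Groups came from the labels. Each aged signal was divided by that of the log phase library per window, and regions were summarised by medians and quartiles. Counting intervals are exact binomial 95% intervals on summed reads. A region was called at 1.3-fold or beyond. Bins of 5 kb were recovered by subtraction from the right end of each chromosome; 98 bins of XII up to and in the rDNA were left out, since 17 of them came out negative. The subtraction and the search for runs were tested on simulated data. Named items were all chromosomes, the 3 segments of XII, the mitochondrial DNA, runs of at least 3 windows beyond the 99th or 1st percentile, and gene lists; members and lists were chosen with earlier results of these data known. Annotation and sequence came from R64 (RefSeq), whose 17 sequence lengths equal the last window ends. Python 3.11.15 was used with numpy 2.4.6, pandas 2.3.3, scipy 1.17.1 and statsmodels 0.14.6.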

Additional observations from a re-analysis of the deposited data

Results flagged for a closer look

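For 3 chromosomes the median ratio to log phase lay above 1 at both ages in the sac3 mutant and below 1 at both ages in wild type. The difference was not tested, with 1 library of each. Chromosome XVI had ratios of 1.06 (24 h) and 1.14 (48 h) in the sac3 mutant, against 0.981 and 0.991 in wild type. Chromosome X had 1.01 and 1.03 in the sac3 mutant, against 0.989 and 0.974 in wild type. Chromosome II had 1.01 and 1.00 in the sac3 mutant, against 0.988 and 0.987 in wild type. With each library centred on windows outside chromosome XII, the sac3 medians at 24 h became 1.05 for XVI, 0.992 for X and 0.999 for II. With GC correction the sac3 median of II at 48 h became 0.993, below 1.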

How the results depend on the processing

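No paired analysis was possible because each time has 1 library. Of the alternative values 30 stayed within counting error or within 1.5 times the count, 42 moved and 4 changed direction. Centring on windows outside chromosome XII put the 24 h ratio at 1.01 for ChrXIIr, 1.05 for XVI, 0.990 for chromosome ends (below 1, against 1.01), 3.57 for mitochondrial DNA and 1.28 for rDNA. With the mean of the 4 log phase libraries as denominator, rDNA stood at 0.957 at 24 h and 0.909 at 48 h, both turned below 1. The other values by that denominator were 1.02 and 1.04 for ChrXIIr, 1.12 and 1.2 for XVI, 1.03 and 0.727 for ends, and 2.80 and 3.69 for mitochondrial DNA. GC correction gave 1.02 for ChrXIIr at 48 h, 1.07 and 1.14 for XVI, 0.983 (turned below 1) and 0.700 for ends, and 1.14 and 1.14 for rDNA. With windows that hold a Ty element, an LTR, ENA or CUP1 left out, the values were 1.05 for ChrXIIr at 24 h, 1.07 and 1.15 for XVI, and 1.26 and 1.3 for rDNA. Summed signals gave 1.07 for ChrXIIr, 1.16 for XVI and 0.746 for ends at 48 h, 3.57 and 4.95 for mitochondrial DNA, and 1.3 for rDNA at 24 h. Bins between peaks, chosen after seeing the data, gave 1.02 and 1.03 for ChrXIIr and 1.05 and 1.12 for XVI. Windows that touch an RDN37 unit, also chosen after seeing the data, gave 1.31 and 1.20 for rDNA. The 6 windows called higher at 24 h, all touching the rDNA, became 1 by centring, by GC correction or without repeats. They became 0 by the other denominator or at 1.5-fold. At 1.5-fold 93 windows, against 219, were higher at 48 h, and in 5 kb bins 1 was lower at 24 h. The causes were not tested. Mitochondrial DNA under GC correction and without repeats was not run at either time (4 values). A median 5 kb bin at 48 h held 1750 reads, a counting error of 2.39%, and the log phase bin in the ratio had 1.53%. Neighbouring bins scattered by 5.75% in the 48 h ratio, so single-bin differences within that scatter were not detectable.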
